A study of Mus musculus with 7 samples.

Results

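Dusp26, the gene of dual-specificity phosphatase 26, was followed through 7 libraries of mouse pancreatic islet RNA. It is 1 of the 51912 gene identifiers counted, taken by its Ensembl identifier (ENSMUSG00000039661) and not by a cutoff. All animals were db/db mice, a strain with a defective leptin receptor that develops obesity and diabetes, and all received an adeno-associated virus (AAV) for 4 weeks. In the 4 control mice the vector was AAV-GFP, and in the 3 treated mice it was AAV-Adipsin, which encodes the complement protease adipsin (gene symbol Cfd). Islets were cultured for 12 hours before RNA extraction, and each library came from a separate mouse. The sources used here do not give the vector's promoter or the animals' age and sex. Dusp26 was chosen by its low counts in AAV-Adipsin against AAV-GFP in these same libraries, the comparison from which the published study singled it out. Its difference between the groups is therefore given as a description, without a p-value.

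Dusp26 belongs to the atypical dual-specificity phosphatases, small enzymes that remove phosphate from tyrosine and from serine or threonine and lack the MAP kinase binding region of the typical MAP kinase phosphatases. It is known mainly from the nervous system and from neuroendocrine tissue and tumours. Its reported targets include the MAP kinases p38 and ERK, the tumour suppressor p53, the growth factor receptor FGFR1, and the kinesin subunit KIF3A. Islet beta cells, which make insulin, share much of their secretory machinery with neurons.

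The gene lies on chromosome 8 of GRCm38 from 31089471 to 31097047, on the plus strand. GENCODE release M21 annotates 5 transcripts, of which 3 code for protein and 2 retain an intron. Each of the 3 coding transcripts carries the same coding length, 633 bases in 3 coding exons, or 211 codons. They differ in their untranslated exons, with 5, 4 and 3 exons in all. The union of annotated exons is 2305 bases. There were 0 other annotated genes overlapping it on either strand, so the unknown strand setting of the counting does not mix it with an annotated antisense gene.

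Libraries held 29601707 to 43997400 counts. Cfd had 839 to 3965 counts in the AAV-Adipsin libraries and at most 1 in the AAV-GFP libraries, as their labels would have it. A count of 0 still allows up to 0.101 CPM in the smallest library (3 counts over its unadjusted total). Elsewhere CPM is the count scaled to the size of its library, with sizes adjusted by the trimmed mean of M values. Genes of beta cell identity summed to between 170058 and 210331 CPM, so the tissue label holds. Replicate 1 of either group carries a treatment name in its description where the other 5 libraries carry a db number, and these 2 stand apart over many genes.

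Dusp26 was read from 616 to 2075 counts per library, 9160 in all. In AAV-GFP it stood at 45.9, 33.8, 53.9 and 51.1 CPM in replicates 1 to 4. In AAV-Adipsin it stood at 24.5, 19.5 and 23.4 CPM in replicates 1 to 3. The AAV-Adipsin libraries all lay below all AAV-GFP libraries. The nearest pair, AAV-GFP replicate 2 and AAV-Adipsin replicate 1, still differed 1.38-fold, and their 95% counting intervals, 31.8 to 36.0 and 23.0 to 26.1 CPM, did not meet. These intervals cover counting error only. Such a separation downwards was seen for 1.58% of the 16504 genes tested, and since it is what Dusp26 was chosen for, nothing is read from it.

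**Figure D1:**
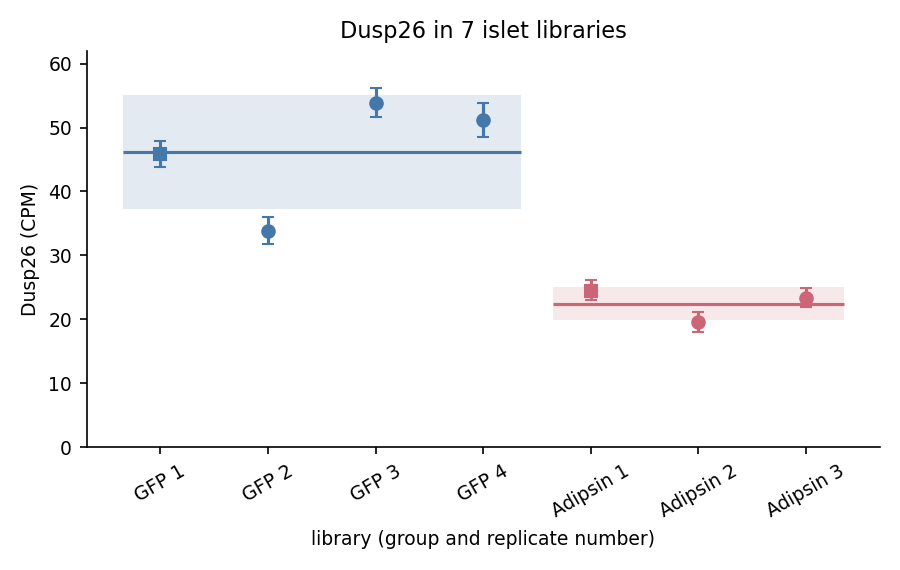
Dusp26 in CPM (y axis) in each library (x axis), with 95% counting intervals as bars, the group mean as a line and 1 SD as a band. Squares are libraries described by a treatment name and circles those described by a db number. The AAV-Adipsin libraries lie between 19.5 and 24.5 CPM and the AAV-GFP libraries between 33.8 and 53.9.

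The group means were 46.2 ± 8.87 CPM in AAV-GFP (SD, n = 4) and 22.5 ± 2.61 CPM in AAV-Adipsin (SD, n = 3), a 2.06-fold lower mean. The fitted log2 fold change was -1.04 (SE 0.16) in edgeR, which is 2.05-fold lower, or 1.83- to 2.30-fold lower at 1 SE on either side. The spread was wider in the control group. The coefficient of variation was 19.2% in AAV-GFP and 11.6% in AAV-Adipsin, and the highest library exceeded the lowest 1.59-fold and 1.26-fold. Most of the control spread came from replicate 2, the lowest control library. In log2 CPM the standard deviation within groups was 0.26. Among the 2653 genes within 0.5 log2 units of its level, 87.2% had a smaller one, and the median was 0.14. Dusp26 thus varied more between mice of the same treatment than most genes expressed at its level. Leaving out the low control, AAV-GFP replicate 2, moved the log2 fold change to -1.15, and leaving out AAV-Adipsin replicate 2 moved it to -0.94.

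Few other genes with a mean of at least 1 log2 CPM differed by as much. Of 12620 genes tested with a mean of at least 1 log2 CPM, 1 had a lower log2 fold change than Dusp26, and 6 differed by as much in the other direction. The lower gene was Reg3a, a secreted lectin of acinar and inflamed pancreatic tissue, at -1.90 (SE 1.37), whose groups overlapped and whose control values ran from 1.69 to 7.40 CPM in 3 libraries and stood at 55.7 CPM in replicate 3. The 6 on the other side were Xlr3a at 1.45, Gpnmb at 1.30, Ifit2 at 1.18, Clec4d at 1.13, Ifit3 at 1.11 and Iigp1 at 1.06. Of all 8 genes, only Dusp26 and Xlr3a had groups that did not overlap, as did 2.73% of all genes tested. Dusp26 was chosen for its difference in this comparison, so nothing is read from its place in this order or from its separation. The 7 other genes were picked for their size after the values were seen. Genes below a mean of 1 log2 CPM were left out of this order, and some of them differed by as much. Among them were Cfd, Ctrc at -1.18 (SE 0.60), Cdh19 at 1.08 (SE 0.77) and Pdgfra at 1.07 (SE 0.97). Over all genes tested the median log2 fold change was -0.01.

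**Figure D2:**
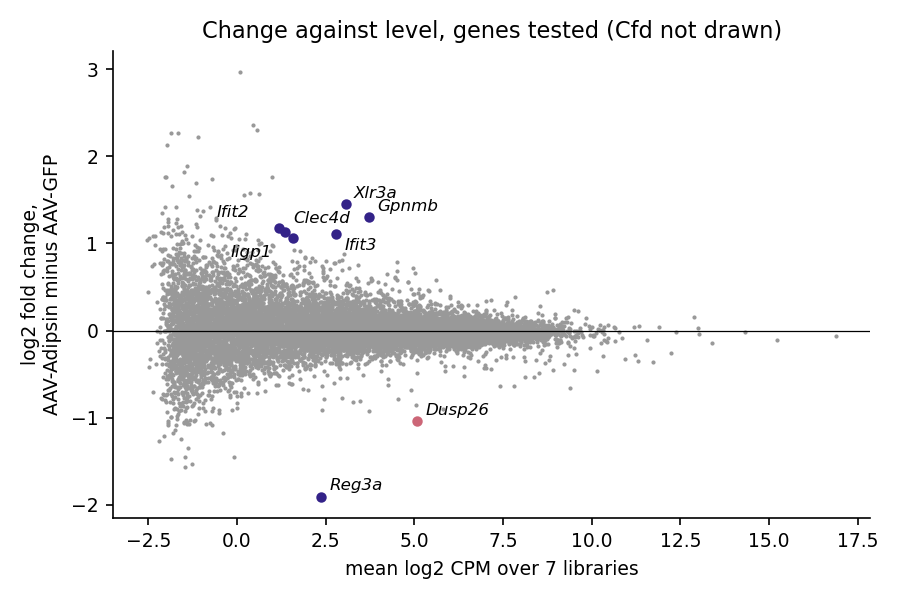
Log2 fold change of AAV-Adipsin minus AAV-GFP (y axis) against mean log2 CPM over the 7 libraries (x axis), with a point for each gene tested except Cfd, which would lie off the scale. Dusp26, chosen for its difference in this comparison, lies at -1.04, apart from the genes of its level. The labelled genes are those at a mean of 1 log2 CPM or more with a difference at least as large.

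The split of the libraries by description style offers a contrast that played no part in the choice of Dusp26. In AAV-GFP the library described by its treatment name, at 45.9 CPM, lay inside the range of the other 3. In AAV-Adipsin that library, at 24.5 CPM, was the highest of 3. With treatment in the model, Dusp26 differed between the styles by 0.08 (SE 0.18) on the log2 scale, with a 95% interval from -0.34 to 0.50, and did not pass (edgeR adjusted p = 0.797). The test called 1616 genes by style, or 9.79% of those tested, with 4.22% higher and 5.57% lower under treatment names. That count rested on single libraries. Leaving out AAV-GFP replicate 1, 3 or 4 gave 39, 668 or 4347 calls, and leaving out AAV-Adipsin replicate 1, 2 or 3 gave 55, 346 or 501. Dusp26 was not called in any of these fits, and its style difference ran from -0.013 to 0.19.

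The treatment difference for which Dusp26 was chosen is given here within each style as a description. In the pair described by treatment names the AAV-Adipsin value was 0.535 of the AAV-GFP value, and among the other 5 libraries the ratio of means was 0.463. The test of whether the treatment difference itself differed between styles gave 0.21 (SE 0.38) on the log2 scale (edgeR adjusted p = 1.00), in a design where the treatment-named style has 1 library per treatment. It called 0 of 16504 genes, with 135 (0.818%) at an unadjusted p under 0.05.

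Among the dual-specificity phosphatases, Dusp26 was one of the more abundant transcripts in control islets. Levels between genes are compared here as CPM per kilobase of annotated exon. Of 30 family genes, Dusp26 ranked 4 in AAV-GFP at a mean of 20.04 CPM per kilobase, with libraries from 14.7 to 23.4. Dusp5, a nuclear phosphatase of ERK, led with 50.3 and a range of 46.7 to 55.4, which did not meet that of Dusp26. The next were Dusp28 at 22.1, ranging from 20.1 to 24.1, and Dusp4, another nuclear ERK phosphatase, at 20.9, ranging from 11.5 to 25.4. Both ranges overlapped with Dusp26, as did that of Dusp23 behind it, at 14.8 with a range of 14.1 to 15.6. In AAV-Adipsin, Dusp26 ranked 8 at 9.75 CPM per kilobase, ranging from 8.47 to 10.6. There it lay below Dusp23, at 12.8 to 15.8, without overlap, and overlapped with Dusp3, at 10.5 to 11.7, Dusp11, at 9.88 to 11.1, Dusp8, at 8.58 to 10.8, and Dusp6, at 8.51 to 10.4. Dusp4, Dusp5, Dusp6 and Dusp8 are named for their place beside Dusp26 in this order.

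**Figure D3:**
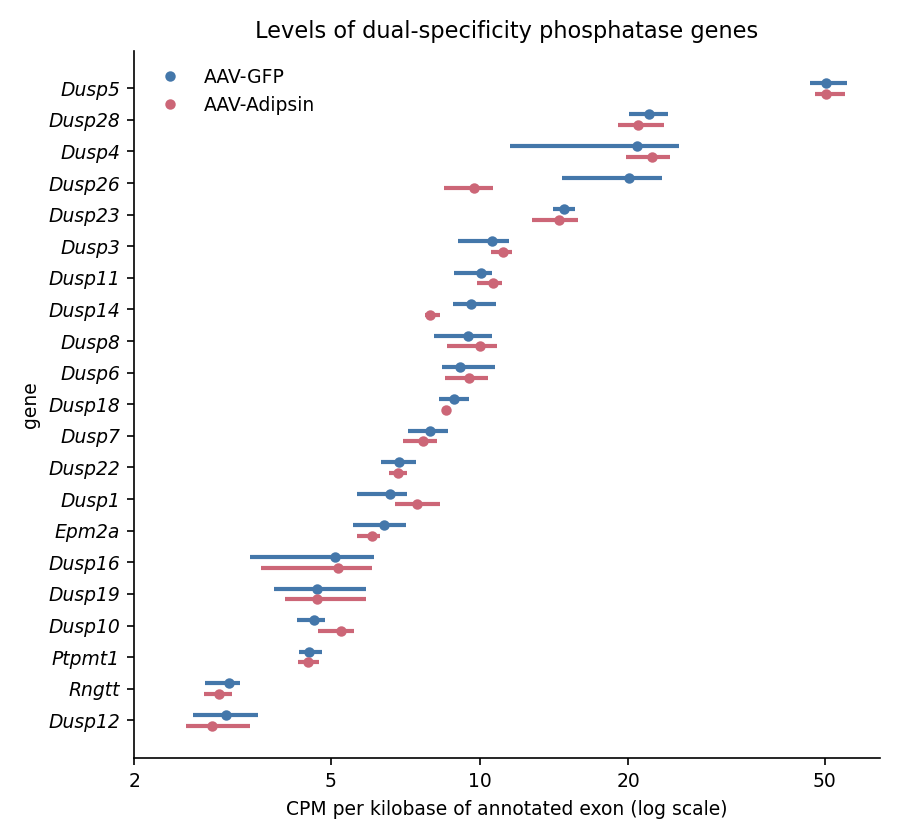
CPM per kilobase of annotated exon on a log axis (x axis) for the 21 most abundant dual-specificity phosphatase genes (y axis), with the group mean as a point and the lowest to highest library as a bar. Dusp26, chosen for its low counts in AAV-Adipsin, moves from rank 4 in AAV-GFP to rank 8 there. Its mean goes from 20.04 to 9.75 CPM per kilobase.

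Dusp26 made up 8.33% to 12.6% of the summed CPM of the 20 atypical phosphatases in AAV-GFP and 5.06% to 6.21% in AAV-Adipsin. The sum of the other 19 ran from 361 to 373 CPM in AAV-GFP and from 360 to 370 CPM in AAV-Adipsin, which overlap. The lower share and the lower rank of Dusp26 restate the difference for which it was chosen, so nothing is read from them. Of these 19, 16 passed the filter on low counts. Dusp21 had 0 counts in every library, and Dupd1 and Dusp27 were too low to test. The 16 had a median log2 fold change of -0.04, with 11 below 0, and apart from Dusp26 the lowest was -0.28.

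That lowest value belonged to Dusp14, an atypical phosphatase known to restrain T cell receptor signalling. It stood at 17.2, 18.7, 18.0 and 21.03 CPM in AAV-GFP and at 16.2, 15.1 and 15.1 CPM in AAV-Adipsin. Its groups did not overlap, but the difference of -0.28 (SE 0.10) did not pass (edgeR adjusted p = 1.00). Dusp3, also called VHR and known as an ERK and JNK phosphatase, was at 0.07 (SE 0.10). Dusp22, a JNK pathway regulator, was at -0.003 (SE 0.08) and Dusp23 at -0.04 (SE 0.10). Dusp18 was at -0.05 (SE 0.08), Dusp12 at -0.10 (SE 0.17) and Dusp28 at -0.08 (SE 0.11). Rngtt, the capping enzyme of messenger RNA, was at -0.07 (SE 0.09), Ptpmt1, a lipid phosphatase of mitochondria, at -0.004 (SE 0.09), and Epm2a, the glycogen phosphatase laforin, at -0.08 (SE 0.10). Dusp11 stood at 0.08 (SE 0.09) and Dusp19 at 0.005 (SE 0.20). The weakly expressed Styx, Styxl1, Dusp13 and Dusp15, each under 2 CPM, had standard errors of 0.30 to 0.41.

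The 10 typical MAP kinase phosphatases were all tested and had a median of 0.07. Dusp1, the stress-induced phosphatase of p38 and JNK, was at 0.18 (SE 0.11), Dusp10, another p38 and JNK phosphatase, at 0.18 (SE 0.10), and Dusp2 at 0.80 (SE 0.36) from a level under 0.3 CPM. Of the 26 phosphatases of both lists other than Dusp26, edgeR, DESeq2 and limma-voom each called 0, and 1, Dusp14, had an unadjusted edgeR p under 0.05. For comparison, edgeR called 0.00606% of all genes tested, and 1.16% had an unadjusted edgeR p under 0.05. The groups did not overlap for 2 of the 26, Dusp14 (lower) and Dusp2 (higher), beside 2.73% of all genes. Apart from Dusp2, the log2 fold changes of the 26 ran from -0.28 (Dusp14) to 0.26 (Dusp13). Dusp26 was chosen for its difference, so nothing is read from its place outside this range.

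**Figure D4:**
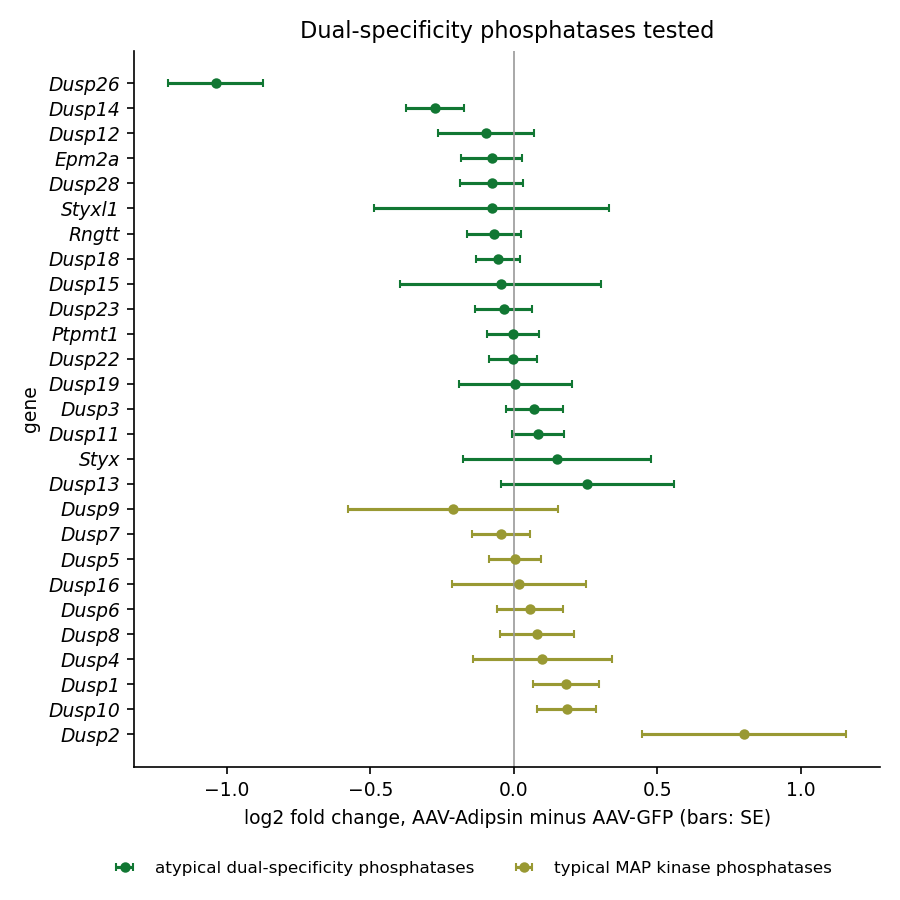
Log2 fold change of AAV-Adipsin minus AAV-GFP (x axis) with its standard error as a bar, for each dual-specificity phosphatase tested (y axis), the atypical genes above and the typical MAP kinase phosphatases below. Dusp26, chosen for its difference in this comparison, lies at -1.04. The others apart from Dusp2 lie between -0.28 and 0.26.

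None of the transcripts of proteins reported to bind Dusp26 or to be its substrates passed the test (0 in edgeR, DESeq2 and limma-voom, 0 at an unadjusted edgeR p under 0.05). The shares over all genes tested in edgeR were 0.00606% called and 1.16% at an unadjusted p under 0.05. All 13 were tested, with log2 fold changes from -0.20 to 0.14 and a median of -0.008, which turned to 0.020 when libraries were scaled by their totals alone. The p38 gene Mapk14 had 166, 190, 193 and 224 CPM in AAV-GFP and 166, 209 and 216 CPM in AAV-Adipsin, a difference of 0.03 (SE 0.13). Mapk3, an ERK gene, was at -0.13 (SE 0.13). The kinesin subunits Kif3a and Kif3b and their adaptor Kifap3 were at 0.08 (SE 0.13), 0.04 (SE 0.10) and 0.01 (SE 0.09). Fadd, a death receptor adaptor described in a complex with the phosphatase, was at -0.12 (SE 0.13).

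Trp53, the p53 gene, was at -0.15 (SE 0.18), and Hsf4, a heat shock factor, at -0.20 (SE 0.17). Fgfr1 stood at 0.14 (SE 0.09) and Map3k7, the TAK1 gene, at -0.01 (SE 0.09). The groups overlapped for each of the 13, while they did not overlap for 2.73% of all genes tested. By description style 3 of the 13 were called, among them Trp53, which was lower under treatment names by 0.53 (edgeR adjusted p = 0.0134). Counts of RNA say nothing of the phosphorylation on which a phosphatase acts.

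Genes of the cascades and of their outputs were read in the same way. Of 30 MAP kinase cascade genes, tested in full, 18 were below 0 and the median was -0.03, or 0.003 by library totals alone. Map2k7, the kinase that activates JNK, had the smallest p in this list, with 42.8, 42.2, 42.3 and 53.1 CPM in AAV-GFP and 37.3, 40.5 and 42.0 CPM in AAV-Adipsin. Its groups did not overlap, by a narrow margin, and the difference of -0.17 (SE 0.10) did not pass. The JNK cascade kinase Map3k11 was at 0.20 (SE 0.15).

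Of 17 feedback and immediate early targets of ERK, 13 were above 0, with a median of 0.02 that was -0.06 without AAV-Adipsin replicate 2. Spry4, a feedback inhibitor of this pathway, stood at 0.22 (SE 0.12), without overlap of the groups. Fosb, an early response transcription factor, was at -0.52 (SE 0.28), Fos at 0.29 (SE 0.23) and Etv5, an ERK-responsive factor, at -0.20 (SE 0.13). Of 18 p53 target genes, 12 were below 0 with a median of -0.05, among them the death gene Bbc3 at -0.14 (SE 0.11), Sesn1 at -0.12 (SE 0.10) and Trp53inp1 at -0.20 (SE 0.17), while Plk2 was at 0.15 (SE 0.13). In these 3 lists edgeR, DESeq2 and limma-voom called 0 genes, and 0 had an unadjusted edgeR p under 0.05. Of all genes tested, edgeR called 0.00606% and gave 1.16% an unadjusted p under 0.05, so nothing is read from these counts.

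In bulk RNA, fewer cells of a type and less RNA per cell cannot be told apart, so the markers of the cells that could carry Dusp26 are given beside it. The summed levels of endocrine genes overlapped between the groups. The 16 genes of secretory granules and their release summed to 39876 to 43447 CPM in AAV-GFP and 38279 to 42689 CPM in AAV-Adipsin, with 13 of 16 below 0 and a median log2 fold change of -0.08. The 25 beta cell identity genes summed to 180029 to 209048 and 170058 to 210331 CPM. Most of that sum was Ins2, at a mean of 123755 CPM in AAV-GFP and 118977 CPM in AAV-Adipsin. Of the 25 genes, 22 were below 0, with a median of -0.06. Leaving out 1 library gave medians from -0.11 (without AAV-Adipsin replicate 1) to -0.01 (without AAV-Adipsin replicate 2). None of these genes passed in edgeR, DESeq2 or limma-voom, where edgeR called 0.00606% of all genes tested. The transcription factor Nkx2-2, at -0.27 (SE 0.10), was the 1 gene with an unadjusted edgeR p under 0.05, beside 1.16% of all genes. Mafa, a factor of mature beta cells, was at -0.29 (SE 0.17), Nkx6-1 at -0.18 (SE 0.09) and Foxo1 at -0.10 (SE 0.09).

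Scaled by the summed counts of the granule list instead of the whole library, the Dusp26 log2 fold change was -0.99 (SE 0.17). Scaled by the beta cell list, most of whose counts are Ins2, it was -0.97 (SE 0.16). The same counts can be set against single endocrine genes, as a description from which nothing is read, since the separation of the groups is what Dusp26 was chosen for. Per 1000 counts of Chga, the granule protein chromogranin A, there were 4.18 to 6.53 counts of Dusp26 in AAV-GFP and 2.47 to 3.01 in AAV-Adipsin. Per 1000 counts of Neurod1, a transcription factor of endocrine cells, there were 201 to 345 and 136 to 150. Per 1000 counts of Nkx2-2, itself lower in all AAV-Adipsin libraries, the ranges were 259 to 398 and 179 to 209. Chga and Neurod1 were taken for this ratio after the values were seen.

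The 10 genes of beta cell dedifferentiation, the loss of mature beta cell features, summed to 270 to 369 CPM in AAV-GFP and 285 to 320 CPM in AAV-Adipsin. Of them 8 were tested and 0 called by edgeR, DESeq2 or limma-voom, with 0 at an unadjusted edgeR p under 0.05. Among all genes tested, edgeR called 0.00606%, and 1.16% had an unadjusted edgeR p under 0.05. Aldh1a3, an aldehyde dehydrogenase used as a dedifferentiation marker, was at -0.24 (SE 0.18), Cd81, a surface protein of immature beta cells, at -0.30 (SE 0.14), Vim at 0.29 (SE 0.49) and Mycl at 0.13 (SE 0.41). Pou5f1 had 0 counts in every library and Nanog 4 over all of them.

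Neurons are another known site of Dusp26, and several of their defining genes were low. Of 10 neuronal genes, Stmn2, Nefl, Prph and Elavl3 were too low to test, while Tubb3, Nefm, Th and Elavl4, which endocrine cells may also express, made up most of the sum. In AAV-Adipsin replicate 1, Stmn2 and Prph each reached 1.06 CPM, against at most 0.310 and 0.104 in AAV-GFP. The sum of the list ran from 142 to 189 CPM in AAV-GFP and from 143 to 186 CPM in AAV-Adipsin. Gap43, a growth cone protein, differed the other way from Dusp26, at 0.64 (SE 0.24), and did not pass. The 9 Schwann cell genes summed to 36.9 to 49.3 and 35.4 to 52.6 CPM, with Sox10 at most 1.28 CPM and a median of 0.19 over the 8 tested.

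Markers of exocrine, immune and stromal cells, and of the rarer endocrine cells, shifted with single libraries. Acinar genes, which make digestive enzymes, summed to 2684 to 17088 CPM in AAV-GFP and 3273 to 12284 CPM in AAV-Adipsin, with 14 of 14 below 0 and a median of -0.36 that was 0.24 without AAV-GFP replicate 3. It was -1.32 when AAV-Adipsin replicate 2 was left out. With the acinar score as a covariate the Dusp26 log2 fold change was -1.06 (SE 0.18). The 14 macrophage genes were all above 0, with sums of 140 to 223 and 153 to 353 CPM and a median of 0.53 that was -0.04 without AAV-Adipsin replicate 2. Medians were 0.19 for 12 endothelial genes and 0.20 for 12 stellate and mesenchymal genes, and -0.03 for the latter without AAV-GFP replicate 2. Without AAV-GFP replicate 4 these were 0.35 and 1.08. They were 0.02 for alpha cell, -0.02 for delta cell, -0.02 for PP cell and -0.04 for duct genes, of which the delta and PP cell values turned to 0.005 and 0.01 by library totals alone. Leaving out 1 library gave alpha cell medians from -0.06 (without AAV-GFP replicate 3) to 0.13 (without AAV-GFP replicate 1) and delta cell medians from -0.12 (without AAV-GFP replicate 1) to 0.06 (without AAV-GFP replicate 4). PP cell medians then ran from -0.35 (without AAV-Adipsin replicate 1) to 0.24 (without AAV-GFP replicate 4), and duct medians from -0.29 (without AAV-Adipsin replicate 2) to 0.14 (without AAV-Adipsin replicate 1). They were -0.09 for the 3 adipocyte and -0.09 for the 4 skeletal muscle genes tested, with Lep, Myh4 and Tnnt3 at 0 counts throughout. The summed CPM of the groups overlapped in each of these lists.

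Over all 21 lists, edgeR, DESeq2 and limma-voom called 0 of the 248 genes tested other than Dusp26. At an unadjusted edgeR p under 0.05 there were 3, namely Dusp14, Nkx2-2 and Gap43, beside 1.16% of all genes. The groups did not overlap for 8 of the 248, beside 2.73% of all genes.

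The chromosomal surroundings of Dusp26 were sparse on one side. The nearest protein-coding gene to the left, Unc5d, a netrin receptor gene, ends 1870 kilobases away and reached at most 1.20 CPM, in AAV-GFP replicate 2. Unc5d was at -0.60 (SE 0.50). The 4 beyond it, Poteg, Gm45861, Chrna6 and Chrnb3, had 0 counts in every library. To the right, Rnf122, a ubiquitin ligase gene from 31111820 to 31131482, starts 14.8 kilobases away. It had 3.40, 3.47, 3.71 and 4.66 CPM in AAV-GFP and 3.14, 3.90 and 3.75 CPM in AAV-Adipsin, at -0.08 (SE 0.18). Tti2, Mak16 and Fut10 follow, the last of them 90.3 kilobases away, and were at -0.09 (SE 0.09), 0.07 (SE 0.15) and -0.01 (SE 0.14). Nrg1, the neuregulin 1 gene, 718 kilobases away, was at 0.79 (SE 0.61) from at most 1.30 CPM. The groups overlapped for all 6 expressed neighbours, and none passed between treatments in edgeR. Of all genes tested, 2.73% had groups that did not overlap and edgeR called 0.00606%, so nothing is read from these counts. By description style Mak16 was lower under treatment names by 0.41 (edgeR adjusted p = 0.0247).

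To find genes that follow Dusp26 from library to library, log2 CPM profiles were centred on each gene's mean and compared by their root mean square difference over the 7 libraries. A gene with no variation at all would differ from Dusp26 by 0.55 on this measure. Among 11781 protein-coding genes with a mean of at least 1 log2 CPM the median was 0.57 and the smallest value 0.36. No profile thus came close to Dusp26 on this measure. The measure takes in the group difference for which Dusp26 was chosen, so nothing is read from that distance.

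The nearest profile was that of Ppp2r2c, a regulatory subunit of protein phosphatase 2A found mainly in brain, at 0.36. It had 9.60, 6.75, 10.4 and 8.07 CPM in AAV-GFP and 6.38, 5.77 and 8.03 CPM in AAV-Adipsin, and its groups overlapped. Like Dusp26, it was lowest in replicate 2 and highest in replicate 3 of AAV-GFP. Next came Gpr62, an orphan G protein-coupled receptor, and Cdo1, the cysteine dioxygenase that begins taurine synthesis, both at 0.37.

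Apcdd1, an inhibitor of Wnt signalling, Cpne4, a calcium-binding copine, Atp6v1g2, a neuronal subunit of the proton pump, Gldc, the glycine decarboxylase, and Cyren, a regulator of DNA repair, followed at 0.38. Cpne4 was the most abundant of the 8, with 20.6, 21.6, 24.7 and 22.3 CPM in AAV-GFP and 17.5, 16.2 and 18.7 CPM in AAV-Adipsin. Its difference was -0.35 against -1.04 for Dusp26. For Cpne4, Cdo1 and Gldc the AAV-Adipsin libraries all lay below the AAV-GFP libraries, as for 1.58% of all genes tested. The log2 fold changes of all 8 lay between -0.44 and -0.33. The choice of these genes by their likeness to Dusp26 fixed that direction, so they carry no test. The list was not stable: leaving out 1 library kept between 1 and 6 of the 8 among the nearest 8.

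**Figure D5:**
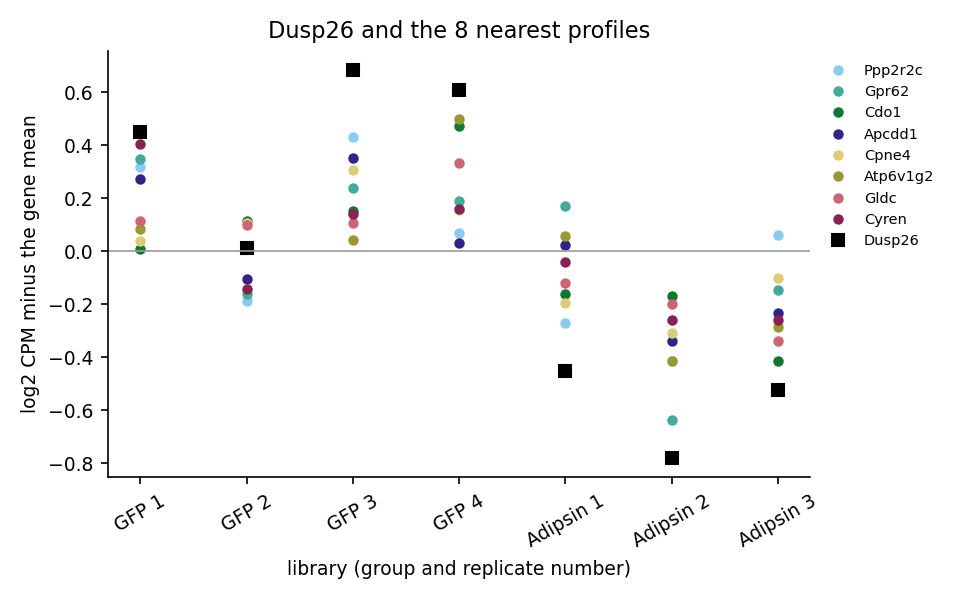
Log2 CPM minus the gene's mean over 7 libraries (y axis) in each library (x axis) for Dusp26 (black squares) and the 8 genes with the smallest root mean square difference from it (coloured circles). Dusp26 spans a wider range than the 8, which differ between the groups by 0.33 to 0.44 log2 units against 1.04 for Dusp26.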

How the data were processed

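Messenger RNA of 7 islet libraries was prepared with a stranded kit, per the labels' protocols. Reads were aligned with STAR to mm10 (GRCm38), per the submitters' processing notes. The STAR version, counting program, strand setting and annotation are not stated in the sources used here. The authors deposited raw read counts per gene, with 0 sample columns left unused. Symbols and exon lengths come from GENCODE M21 (release number 21), which matched 51719 of 51912 identifiers.

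Counts were filtered with filterByExpr, scaled by TMM and fitted by robust quasi-likelihood in edgeR 4.0.16 (R 4.3.3), with two-sided tests adjusted by Benjamini-Hochberg over all 16504 genes tested at 0.05. SE is the log2 fold change divided by the root of F. Log2 CPM carried a prior count of 2. DESeq2 1.42.0 and limma 3.58.1 (voom) were alternatives, beside other scalings and filters, covariates, thinning and leaving out libraries. The fit was tested on simulated data. Named genes were Dusp26, the 8 nearest profiles, 5 neighbours on each side, the atypical phosphatases, the reported partners, and from each other list as many as 4 members by smallest p. Exceptions are stated, and some genes under this rule are not reported here. Dusp26, the lists and the tests were chosen with earlier results of these data known. The fit of treatment by description style was added after the data were seen.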

Additional observations from a re-analysis of the deposited data

Results flagged for a closer look

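Within AAV-GFP, 1 library stood far from the other 3 for 17 of 139 gene or list levels examined, by the ratio of its gap to the whole range (above Dixon's 95% critical value, which chance alone passes in about 1 group in 20). Dusp26 was not among them. AAV-GFP replicate 4 was the distant library in 9 cases, each time the highest. These were Atp6v1g2 (ratio 0.881, 8.59 CPM against at most 6.42), Gldc (0.94), Map2k7 (0.947), Fadd (0.838), Hhex (0.936), Ngfr (0.953), Dcn (0.85, 19.0 CPM against at most 3.98), and the summed endothelial (0.854) and stellate and mesenchymal (0.842) lists. Replicate 1 was distant for Nrg1 (0.935), Gria3 (0.911), Vamp2 (0.946), Th (0.897), Krt7 (0.894) and Acta1 (0.878), and was the lowest only for Vamp2. Replicate 2 was distant for Unc5d (0.956) and replicate 3 for Ptf1a (0.845). The Dusp26 log2 fold change was -0.99 without AAV-GFP replicate 4 and -1.03 without replicate 1. The treatment difference was not found to differ between description styles for any of the 116 named genes tested (edgeR, 0 of 16504 genes called).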

How the results depend on the processing

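The Dusp26 log2 fold change stayed between -1.15 and -0.94 over all alternatives, those that leave out 1 library included. The 1 gene called between treatments, Cfd, gave way to 0 calls without a filter on low counts, with limma-voom, in thinned counts and when both treatment-named libraries were left out, and to 4 calls with DESeq2. Leaving out 1 library gave 0 to 1, with 0 for any AAV-GFP library or AAV-Adipsin replicate 3. By description style DESeq2 called 2533 genes, and leaving out 1 library gave 39 to 4347. The Dusp26 style difference then ran from -0.0134 to 0.19, turning below 0 when AAV-GFP replicate 2 (-0.00434) or else AAV-Adipsin replicate 1 (-0.0134) was dropped. The cause was not tested. Of 115 other named genes compared, 39 changed sign under some alternative, as did the medians of 15 of 21 lists. Libraries numbered 1 deviated together (r = 0.66 over genes) and those numbered 2 and 3 did not (r = -0.011 and 0.0071), so the numbers were not taken as pairs. With the replicate block Dusp26 was at -0.97 (SE 0.09), and 1 gene was called. Counts of 0 and genes under 1 CPM limit the weakly expressed phosphatases.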
